A study of Homo sapiens with 9 samples.

Results

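The 10 genes described here were the 6 methyltransferases of histone H3 lysine 4 that form the KMT2/SETD1 family (*KMT2A*, *KMT2B*, *KMT2C*, *KMT2D*, *SETD1A* and *SETD1B*), 3 demethylases of the same residue (*KDM5A*, *KDM5B* and *KDM5C*), and *KDM6A*, a demethylase of histone H3 lysine 27 that sits in the complexes of *KMT2C* and *KMT2D*. They were chosen by gene symbol, with no threshold on their values, but with earlier results of these data known. Their counts beside those of all tested genes are therefore descriptions. They are 10 of the 27902 genes in the expression tables, and all 10 passed the filter of a mean of 1 FPKM or more (fragments normalised to transcript length and library size) over the 9 libraries, which left 12509 genes to test. RNA-seq was performed on DU145, an established human prostate cancer cell line whose genotype is given as WT in every group. The 3 groups, of 3 libraries each, expressed a scrambled shRNA (labelled scramble, here control), shRNA FZD6 #1 (shRNA1) or shRNA FZD6 #2 (shRNA2). The methods name a lentiviral vector for constitutive expression of hairpins (pLKO.1) and another for expression induced by doxycycline (Tet-pLKO-GFP). Which of them the sequenced cells carried is not given in the sources used here. *FZD6* encodes a Frizzled receptor for Wnt ligands, and the question asked was how its knockdown changed gene expression in these cells. The labels call the libraries triplicates and do not say that they came from separate cultures, so p-values measure the spread between these libraries, which may be technical.

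Methylation of histone H3 lysine 4 marks active chromatin. The SETD1 enzymes place most of the trimethylation at active promoters, *KMT2A* and *KMT2B* act with menin at selected promoters, and *KMT2C* and *KMT2D* place monomethylation at enhancers. KDM5 enzymes remove trimethylation and dimethylation from the same residue. In prostate cancer *KMT2C* and *KMT2D* are recurrently mutated. The deposited tables measure transcripts only, so neither the enzymes' protein nor the histone mark is covered.

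*FZD6*, the targeted gene, stood at 20.9, 20.5 and 20.0 FPKM in the control libraries, at 9.47, 10.2 and 9.80 with shRNA1 and at 7.84, 8.79 and 7.69 with shRNA2. Its groups did not overlap, and its log2 fold change of FPKM + 1 in the 6 knockdown libraries against the 3 controls was −1.12 (SE 0.0848, limma adjusted p = 0.000490). The estimated depth was 33.4 to 41.8 M mapped fragments per library. Of the markers examined, the 6 epithelial genes summed to 1627 to 1816 FPKM over the libraries, most of it *KRT7* (960 to 1095). Among them *CDH1* was low, at 3.38 to 5.02 FPKM. Its mean was 21.2% lower in the knockdown libraries than in control, while *EPCAM* was 21.2% higher and *KRT19* 10.8% higher. Of blood, fibroblast and endothelial genes, 7 of 8 were under 1 FPKM, with *PTPRC* and *CD3E* at 0. The exception was *CD68*, at 16.9 to 18.1 FPKM in control, 21.3 to 23.0 with shRNA1 and 25.05 to 25.69 with shRNA2, and its part in the results was not tested. In a bulk library, fewer cells of a kind and less RNA per cell cannot be told apart.

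In the control cells the members spanned a range from 2.25 FPKM for *KDM6A* to 15.1 FPKM for *SETD1A*, a scale that corrects for transcript length. *SETD1A* (14.5 to 15.6 FPKM) and *KDM5C* (14.3 to 14.9) were highest and overlapped each other. *KMT2B* followed at 8.53 to 8.85, then *KDM5B* at 7.18 to 7.41, and neither range overlapped that of the next member. *SETD1B* (6.86 to 7.12) overlapped *KMT2D* (6.12 to 6.95). *KMT2A* (4.50 to 5.04) overlapped *KDM5A* (4.38 to 4.62), and *KMT2C* (2.10 to 2.55) overlapped *KDM6A* (2.20 to 2.29) at the low end.

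RNA-seq analysis revealed lower levels of 7 of the 10 members in the *FZD6* knockdown cells at a limma adjusted p under 0.05, and of none a higher level. The 7 were *KMT2A*, *KMT2B*, *KMT2C*, *KMT2D*, *SETD1A*, *SETD1B* and *KDM5B*, so all 6 methyltransferases and 1 of 3 KDM5 demethylases fell. Across the 12509 genes tested, 7.10% were lower by the same criterion. The members' median log2 fold change was −0.21, beside 0.03 over all tested genes, and all 10 values were below 0, as were 41.8% of all tested genes. In 7 members every knockdown library lay below every control library (*KMT2A*, *KMT2B*, *KMT2D*, *SETD1A*, *SETD1B*, *KDM5B* and *KDM5C*), which held for 9.46% of tested genes. By the criteria of the study, unadjusted p under 0.01 with a fold of 1.2 or more, applied here to log2(FPKM + 1), 3 members were lower (*KMT2A*, *KMT2D* and *KDM5B*), beside 1.78% of tested genes. Applied to log2 FPKM with nothing added, a setting chosen after seeing the data, the same criteria gave 4, *SETD1B* in addition, beside 2.65% of the 12116 genes above 0 in every library. By the limma test, without control replicate 1 or without control replicate 2 the count was 3 in place of 7, and those lost were *KMT2B*, *KMT2C*, *KMT2D* and *SETD1A*. In those fits 3.42% and 2.90% of all tested genes were lower. Summed over the 6 methyltransferases, the level was 42.6 to 45.9 FPKM in control, 34.9 to 36.1 with shRNA1 and 35.0 to 39.7 with shRNA2. The 3 KDM5 demethylases summed to 25.8 to 26.8, 23.1 to 23.8 and 21.8 to 24.6 FPKM in the same order.

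**Figure D1:**
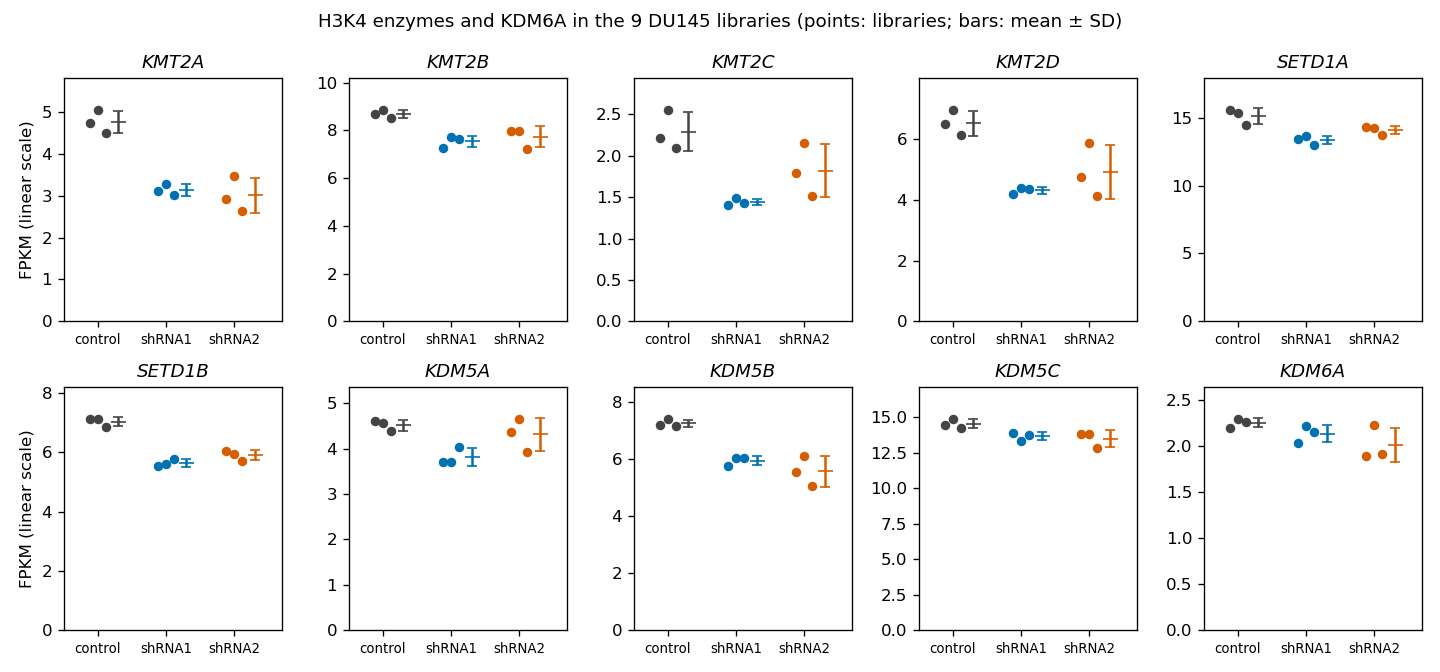
FPKM (linear axis from 0) of the 10 members in the 9 libraries, one panel per gene; points are libraries in replicate order and bars the mean ± SD of 3 libraries. All 6 knockdown libraries lie below all 3 control libraries for 7 members, and groups overlap for *KMT2C*, *KDM5A* and *KDM6A*.

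*KMT2A* encodes MLL1, a methyltransferase whose gene is frequently rearranged in leukaemia. The gene lies on the plus strand of chromosome 11 at chr11:118436492-118526832 (hg38). Its level was 4.73, 5.04 and 4.50 FPKM in control, 3.12, 3.28 and 3.01 with shRNA1, and 2.92, 3.47 and 2.65 with shRNA2. Every knockdown library was under the lowest control library, and shRNA2 replicate 2 was the highest of the 6. The mean decreased by 34.1% with shRNA1 and decreased by 36.7% with shRNA2, and the log2 fold change was −0.48 (SE 0.0740, limma adjusted p = 0.00782) and −0.53 (SE 0.0740, adjusted p = 0.00312). In the knockdown comparison *KMT2A* had the largest fold change of the 10.

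*KMT2D* encodes an enhancer methyltransferase (MLL4) and is on the minus strand at chr12:49018978-49060794. Its values were 6.49, 6.95 and 6.12 FPKM in control, 4.19, 4.40 and 4.35 with shRNA1, and 4.75, 5.87 and 4.11 with shRNA2. The control libraries were again the 3 highest, but shRNA2 replicate 2 came close to the lowest of them. The fold change over all knockdown libraries was −0.43 (SE 0.0910, limma adjusted p = 0.0138), and it was −0.50 with shRNA1 and −0.36 with shRNA2 (adjusted p = 0.0151 and 0.0336). Its paralogue *KMT2C* (MLL3, chr7:152134925-152436003, minus strand) was at 2.22, 2.55 and 2.10 FPKM in control, 1.41, 1.48 and 1.43 with shRNA1, and 1.79, 2.15 and 1.51 with shRNA2. Here shRNA1 stood apart from control, while shRNA2 replicate 2 lay within the control range. *KMT2C* fell by 0.43 with shRNA1 (SE 0.0835, limma adjusted p = 0.0148) and its value with shRNA2 was −0.23 (95% interval −0.42 to −0.03, adjusted p = 0.0837). Parts of *KMT2C* have near-identical copies elsewhere in the genome, so reads may have been shared with them and its level is uncertain.

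*KMT2B* (the closest paralogue of *KMT2A*, chr19:35718003-35738878, plus strand) changed less. It was measured at 8.70, 8.85 and 8.53 FPKM in control, 7.27, 7.73 and 7.64 with shRNA1, and 7.99, 7.99 and 7.23 with shRNA2. The groups did not overlap, and the log2 fold changes were −0.18 with shRNA1 and −0.15 with shRNA2 (limma adjusted p = 0.0247 and 0.0339).

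*SETD1B* and *SETD1A* are the catalytic subunits of the COMPASS complexes that place most trimethylation. *SETD1B* (chr12:121790155-121832656, plus strand) had 7.12, 7.12 and 6.86 FPKM in control, 5.52, 5.59 and 5.79 with shRNA1, and 6.06, 5.95 and 5.71 with shRNA2. It had the smallest standard error of the 7 genes that fell and the groups were well separated, with a fold change of −0.25 over the knockdown libraries (SE 0.0316, limma adjusted p = 0.00266). *SETD1A* (chr16:30957754-30984664, plus strand) had 15.6, 15.4 and 14.5 FPKM in control, 13.4, 13.6 and 13.0 with shRNA1, and 14.3, 14.2 and 13.8 with shRNA2. Control replicate 3 lay just above the highest shRNA2 library. The change of *SETD1A* was −0.17 with shRNA1 (limma adjusted p = 0.0169) and −0.10 with shRNA2 (95% interval −0.18 to −0.02, adjusted p = 0.0727).

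Among the demethylases, *KDM5B* (JARID1B, chr1:202724495-202808421, minus strand), which is often overexpressed in prostate and breast cancer, passed the test. It was at 7.19, 7.41 and 7.18 FPKM in control, 5.77, 6.03 and 6.05 with shRNA1, and 5.56, 6.13 and 5.05 with shRNA2. No knockdown library reached the control range, and the means decreased by 18.1% with shRNA1 (limma adjusted p = 0.0229) and decreased by 23.2% with shRNA2 (adjusted p = 0.00600). *KDM5A* (RBP2, chr12:280057-389320, minus strand), which binds the retinoblastoma protein, was at 4.62, 4.56 and 4.38 FPKM in control, 3.71, 3.70 and 4.05 with shRNA1, and 4.38, 4.65 and 3.92 with shRNA2. With shRNA1 all libraries lay below control and the gene fell by 0.20 (limma adjusted p = 0.0437), while with shRNA2 the groups overlapped and the value was −0.06 (95% interval −0.18 to 0.07, adjusted p = 0.480). *KDM5C* (chrX:53176277-53225207, minus strand) was at 14.5, 14.9 and 14.3 FPKM in control, 13.9, 13.4 and 13.7 with shRNA1, and 13.8, 13.8 and 12.8 with shRNA2. The groups did not overlap, but the difference was small at −0.09 over the knockdown libraries (95% interval −0.16 to −0.02, limma adjusted p = 0.0707).

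*KDM6A* (UTX, chrX:44873188-45112779, plus strand) was at 2.20, 2.29 and 2.26 FPKM in control, 2.03, 2.21 and 2.15 with shRNA1, and 1.89, 2.22 and 1.92 with shRNA2. These groups overlapped, and the difference of −0.08 did not pass the test (95% interval −0.18 to 0.01, limma adjusted p = 0.200). Because 1 FPKM was added before the logarithm, fold changes of all members are understated, and more so for the low members, such as *KMT2C* and *KDM6A*. With 0.01 FPKM added instead, the knockdown comparison gave −0.63 for *KMT2A*, −0.51 for *KMT2D* and −0.50 for *KMT2C*. With 1 FPKM added these were −0.50, −0.43 and −0.33. With shRNA1 the lowest value over the alternatives was −0.66 for *KMT2C* and −0.60 for *KMT2A*.

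Compared separately, the hairpins share the control libraries. With shRNA1, 8 members were lower (all but *KDM5C* and *KDM6A*), where 7.19% of tested genes were, and with shRNA2, 5 members were lower (*KMT2A*, *KMT2B*, *KMT2D*, *SETD1B* and *KDM5B*), where 11.4% were. The medians were −0.22 and −0.18. Leaving out 1 of the 9 libraries gave 2 to 8 members with shRNA1 and 3 to 7 with shRNA2. With shRNA1 the fewest came without control replicate 2, shRNA1 replicate 1 or shRNA1 replicate 3. In those leave-one-out fits 365 to 1367 of the 12509 tested genes were lower with shRNA1, and 974 to 1939 with shRNA2. Compared directly, shRNA2 against shRNA1, no member passed the limma test and 2 had an unadjusted p under 0.05 (*KMT2C* and *KDM5A*), while 6.71% of tested genes passed in either direction. The log2 difference, shRNA2 minus shRNA1, was 0.20 for *KMT2C* (95% interval 0.01 to 0.40, limma adjusted p = 0.206) and 0.14 for *KDM5A* (0.01 to 0.27, adjusted p = 0.183). For *KDM5B* the same difference was −0.08 (−0.21 to 0.05), and for *KMT2A* it was −0.05 (−0.22 to 0.12). For the target *FZD6* it was −0.25 (limma adjusted p = 0.0273), and it passed in 14 of 22 alternatives (adjusted p 0.00403 to 0.204).

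**Figure D2:**
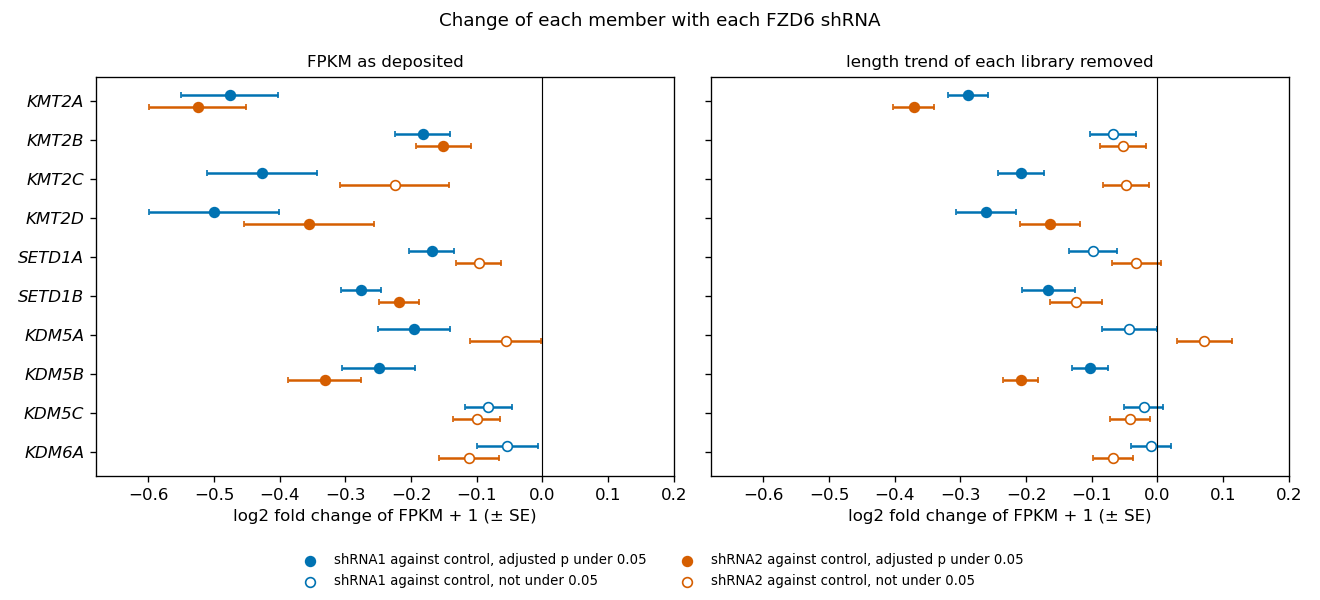
Log2 fold change of FPKM + 1 (± SE from limma) of each member with shRNA1 and shRNA2 against control, for the FPKM as deposited (left) and after the length trend of each library was removed (right); filled points have an adjusted p under 0.05. The values of *KMT2A*, −0.48 and −0.53 on the left, are −0.29 and −0.37 on the right, and *KDM5A* with shRNA2 moves from −0.06 to 0.07.

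The members' transcripts are long, and transcript length went with the change across the whole table. By GENCODE v29, *KMT2D* measures 19419 bases, *KMT2C* 16862, *KMT2A* 13678, *KDM5A* 10763, *KDM5B* 10341, *KMT2B* 8469, *SETD1B* 8185, *SETD1A* 6451, *KDM5C* 6096 and *KDM6A* 5438. Thus 8 members were in the longest decile of the 12255 tested genes with a length, which starts at 6437 bases, and the other 2 were in the decile below it. The longest decile had a median log2 fold change of −0.10 in the knockdown libraries and the shortest decile one of 0.11. Spearman's rho between length and fold change across these genes, which are not independent replicates, was −0.434.

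Each member was therefore set beside the 100 tested genes nearest to it in length. For the longest members these spanned 12727 to 27748 bases (*KMT2D*), 12666 to 22209 (*KMT2C*) and 11754 to 15906 (*KMT2A*). The neighbours of these members are thus partly the same genes. Those of *KMT2C* and *KMT2D* are mostly the same, so their comparisons are not separate. Neighbours were matched for length and not for level, and the 1 FPKM added understates the fold changes of low genes most. *KMT2A* was at −0.50, and of its neighbours, whose median was −0.17, 5% were lower still. For *SETD1B*, *KMT2D* and *KDM5B* 12% of the neighbours were lower, and their values of −0.25, −0.43 and −0.29 stood beside neighbour medians of −0.11, −0.14 and −0.11. For *KMT2C* the share was 20%, for *SETD1A* 23%, for *KMT2B* 30%, for *KDM6A* 34% and for *KDM5C* 36%. *KDM5A* stood at the middle of its neighbours, with a value of −0.13 beside a median of −0.13. In all, 9 of 10 members were below their neighbours' median and 1, *KMT2A*, was in the lowest 10%. Beside 200 neighbours these counts were 9 and 2, with *KMT2A* at 3.5% and *KMT2D* at 9%. Of the 100 neighbours, those lower at a limma adjusted p under 0.05 numbered 37 for *KMT2A*, 36 for *KMT2C*, 36 for *KMT2D*, 28 for *KDM5A*, 25 for *KMT2B*, 23 for *KDM5B*, 21 for *SETD1B*, 19 for *SETD1A*, 14 for *KDM5C* and 13 for *KDM6A*. These shares lie above the 7.10% of all tested genes, and the 7 of 10 members that fell are to be read beside them.

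**Figure D3:**
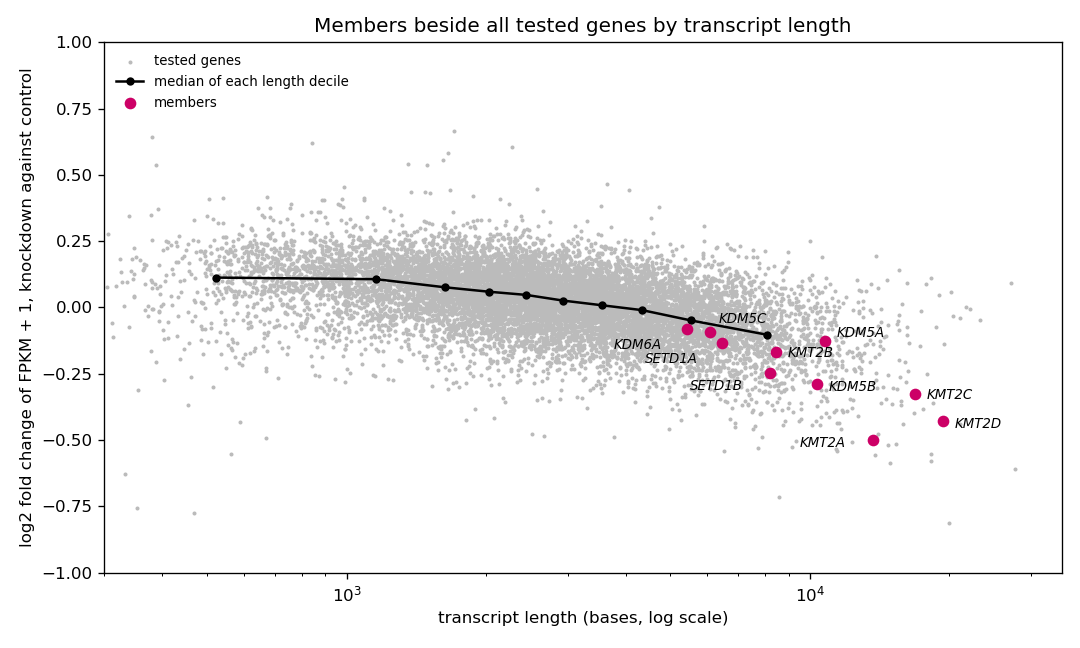
Log2 fold change of FPKM + 1, knockdown against control, against transcript length on a log axis for 12255 tested genes (grey, of which 468 fall outside the axes), with the median of each length decile at its median length (black) and the 10 members (red). The decile medians run from 0.11 in the shortest to −0.10 in the longest, and *KMT2A*, *KMT2D* and *KMT2C* lie at the lower right.

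With each library's length trend removed, 4 members were lower at a limma adjusted p under 0.05, beside 5.95% of tested genes. These were *KMT2A* at −0.33 (SE 0.0364, adjusted p = 0.00240), *KMT2D* at −0.21 (SE 0.0478, adjusted p = 0.0249), *SETD1B* at −0.15 (SE 0.0363, adjusted p = 0.0352) and *KDM5B* at −0.16 (SE 0.0394, adjusted p = 0.0369). *KMT2C* (−0.13, limma adjusted p = 0.166), *KMT2B* (−0.06, adjusted p = 0.223) and *SETD1A* (−0.06, adjusted p = 0.277) did not pass. *KDM5A* was at 0.01.

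The level of other long transcripts also differed between libraries. Relative to the mean of the controls, the median of 620 other genes of 8000 bases or more was −0.14, −0.12 and −0.16 on the log2 scale in shRNA1 replicates 1, 2 and 3, and −0.13, −0.0045 and −0.20 in the same replicates of shRNA2. The members' median was −0.26, −0.23 and −0.22 with shRNA1 and −0.18, −0.10 and −0.25 with shRNA2. The order of the libraries was the same on both measures within shRNA2 and differed within shRNA1 and within control. Each control library was set against the mean of the other control libraries. On that scale control replicate 2 was the highest library on both measures, at 0.07 for the long genes and 0.04 for the members. Thus shRNA2 replicate 2, in which *KMT2A*, *KMT2B*, *KMT2C*, *KMT2D*, *KDM5A*, *KDM5B* and *KDM6A* were highest among the knockdown libraries, was also the knockdown library in which other long transcripts were nearest to control. Without it, 8 members were lower (*KDM5A* in addition, at an adjusted p of 0.0456 by limma), and so were 9.82% of all tested genes.

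**Figure D4:**
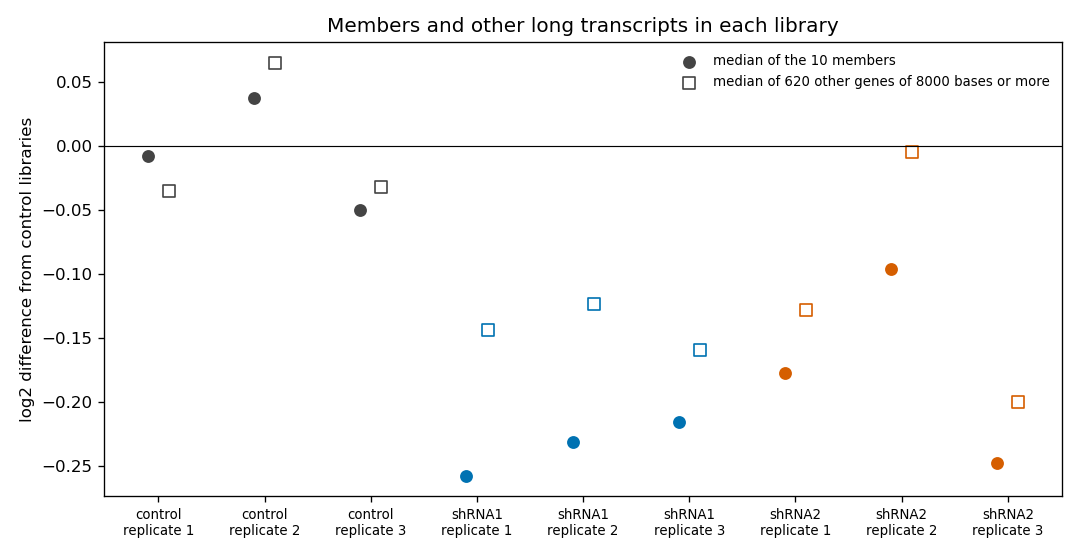
Median log2 difference of FPKM + 1 from the mean of the control libraries, for the 10 members (circles) and 620 other tested genes of 8000 bases or more (squares), in each of the 9 libraries. Each control library is set against the mean of the other control libraries. Members lie below the other long genes in all 6 knockdown libraries, and of these shRNA2 replicate 2 is nearest to 0 for both.

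Over the 9 libraries, each member correlated with the mean of the other 9 at a Pearson's r between 0.643 (*KDM6A*) and 0.984 (*KMT2D*), a description over libraries that share a trend in transcript length. The 5 genes whose pattern was most like the members' mean, of 8602 with a mean of 5 FPKM or more, were *AFDN* (r = 0.994), *HUWE1* (0.990), *PCNT* (0.989), *AKAP12* (0.989) and *VCL* (0.989). Their transcripts measure 5490 to 14739 bases.

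*KMT2A* was listed under a pair of RefSeq accessions with nearly identical sequence, and the split between them was unstable while the sum was not. NM_001197104 was given 4.13, 0.812 and 4.30 FPKM in the control libraries, and NM_005933 was given 0.598, 4.23 and 0.198. In the shRNA1 libraries NM_001197104 held 0.206% to 0.455% of the gene, and with shRNA2 it held 0.122% to 41.7%. Control replicate 2 thus resembled the knockdown libraries in the split, although its summed level was the highest of the 9. The other accessions of *KDM5B* were minor, since NM_006618 held 90.5% to 96.8% of the gene in every library.

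**Figure D5:**
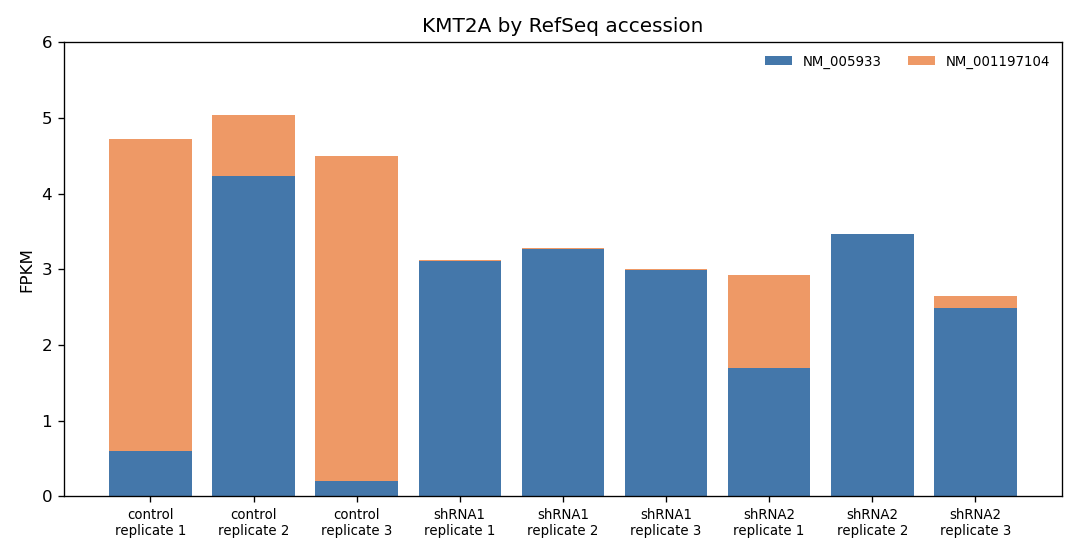
FPKM of *KMT2A* in each library (bar, linear axis from 0), divided between its 2 RefSeq accessions. The bar heights fall from 4.50 to 5.04 FPKM in control to 2.65 to 3.47 with the *FZD6* shRNAs, while the division differs between control replicates.

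The RT-qPCR primers of the study for 3 members are shown because they sample one short stretch of these long transcripts, where FPKM averages over the whole length. They were located in the GENCODE v29 transcripts (hg38) and are given 5′ to 3′.
*KMT2A* forward primer, chr11:118471978-118472000, transcript bases 842 to 864: aagagcaggtaaactctctcctc
*KMT2A* reverse primer, chr11:118472051-118472072, transcript bases 915 to 936: ttcctctccgtcgtacaatttg
*KMT2D* forward primer, chr12:49054668-49054687, transcript bases 241 to 260: gagctacggcgctttgagtt
*KMT2D* reverse primer, chr12:49054565-49054587, transcript bases 341 to 363: agggaaaccaatctgtgataggt
*KDM5B* forward primer, chr1:202808127-202808145, transcript bases 1326 to 1344: ccatagccgagcagactgg
*KDM5B* reverse primer, chr1:202777037-202777059, transcript bases 1405 to 1427: ggatacgtggcgtaaaatgaagt

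The *KMT2A* product is 95 bases of exon 3 (bases 842 to 936 of the transcript), the *KMT2D* product 123 bases of exon 3 (241 to 363), and the *KDM5B* product 102 bases across exons 1 and 2 (1326 to 1427). All 3 products are coding and lie near the 5′ end, with 12742, 19056 and 8914 bases of transcript downstream of them. By RT-qPCR of these products, the paper reports that the genes they sample were lower in the knockdown cells. The RT-qPCR values were not examined here.

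The members were also described by their promoters, with RefSeq sequences on GRCh38.p14, which gave a promoter for 9 of the 10 (not for *SETD1B*). The 250 bases upstream of the RefSeq start are printed for *KMT2A* and *KMT2D*, the members with the lowest fold changes, on the gene's strand, with matches to a GC box (GGGCGG), an E-box (CACGTG) or an ETS motif (CCGGAA) in capitals, on either strand.
*KMT2A*: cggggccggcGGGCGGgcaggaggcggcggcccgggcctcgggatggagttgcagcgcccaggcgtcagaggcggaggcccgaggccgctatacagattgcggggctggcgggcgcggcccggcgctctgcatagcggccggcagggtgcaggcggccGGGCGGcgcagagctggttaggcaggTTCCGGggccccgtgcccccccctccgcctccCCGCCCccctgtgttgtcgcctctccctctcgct
*KMT2D*: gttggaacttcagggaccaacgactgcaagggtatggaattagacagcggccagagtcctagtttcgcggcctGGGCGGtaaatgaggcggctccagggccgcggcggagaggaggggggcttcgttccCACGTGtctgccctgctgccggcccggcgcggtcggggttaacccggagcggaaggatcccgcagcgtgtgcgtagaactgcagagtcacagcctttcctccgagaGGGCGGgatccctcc

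Those windows are chr11:118436242-118436491 (plus strand) and chr12:49060795-49061044 (minus strand). Starts differ between annotations: the GENCODE transcript of *KMT2D* used for lengths and primers starts downstream of the RefSeq start, and that of *KDM5B* starts upstream, so that the window of *KDM5B* lies within its first exon. Motifs were counted from 250 bases before to 50 after the RefSeq start. A GC box was found in 8 of 9 members, and in 44.95% of 35116 promoters of the same window, taken with no filter on expression. The upstream 250 bases of the 9 members were 51.2% (*KDM5C*) to 92% GC (*KMT2C*), beside a median of 58% over all promoters. The E-box was found in *KMT2D* and *KDM6A* (7.26% of all promoters) and the ETS motif in *KMT2A*, *KDM5A* and *KDM5C* (17.2%). A CCAAT box was found in 1 member, *KDM6A* (34.6%). The letters ATGGCG, a part of the long YY1 motif, were found in *KMT2A*, *KMT2B* and *KDM5C* (10.7%). The long YY1 motif, which 0.849% of all promoters hold, was present just after the start of *KMT2B* and *KDM5C*. Those sites, with the motif in capitals, are shown because *KMT2B* fell and *KDM5C* did not pass the test.
*KMT2B*, chr19:35718007-35718036, plus strand: cacggtgccAAGATGGCGGCggcggcgggc
*KDM5C*, chrX:53225179-53225208, minus strand: tgacaaaccAAGATGGCGGCggcggcgctg

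Such matches are descriptions of letters in a window and not of binding.

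Genes that work with these enzymes were examined by list. Of 50 listed genes (complex subunits, other enzymes of histone H3 lysine 4, readers of the mark, enzymes of lysine 27, and targets of *KMT2A* and menin), 45 were tested, of which 4 were higher and 6 lower in the knockdown libraries by limma, with a median of 0.0033. Over all 12509 tested genes, 13.5% were higher and 7.10% lower. Among the 6 shared subunits, *DPY30*, a small core subunit, rose by 0.15 (limma adjusted p = 0.0141) and *HCFC1*, host cell factor, fell by 0.31 (adjusted p = 0.0125). The core subunits *WDR5* (−0.03), *RBBP5* (0.05) and *ASH2L* (0.10) did not pass. Of the 4 subunits particular to the SETD1 complexes, *BOD1* rose by 0.18 (limma adjusted p = 0.00571) and *BOD1L1* fell by 0.35 (adjusted p = 0.0102). *NCOA6*, a coactivator in the *KMT2C* and *KMT2D* complexes, fell by 0.20 (limma adjusted p = 0.0123), and *MEN1*, which encodes menin, was at −0.04. The lower genes *HCFC1*, *BOD1L1* and *NCOA6* have transcripts of 8869, 10565 and 7081 bases, and the higher genes *DPY30* and *BOD1* of 708 and 1562 bases.

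Of 8 other enzymes of lysine 4 tested, *KDM2B* was lower (−0.16, limma adjusted p = 0.0322) and *KDM1A*, the demethylase LSD1, was at −0.0043. Of 12 readers, *BPTF*, the largest subunit of the NURF remodeller, was lower by a log2 change of −0.39 (limma adjusted p = 0.00266), *PHF2* by −0.15 (adjusted p = 0.0214), and *SGF29*, which binds the mark in the SAGA complex, was higher by 0.21 (adjusted p = 0.0260). *BPTF* measures 11292 bases and *SGF29* 1153. Of 5 genes of lysine 27 methylation, *EED*, a subunit of the Polycomb complex PRC2, was higher by 0.18 (limma adjusted p = 0.0130), and *KDM6B*, the paralogue of *KDM6A*, was at −0.09 (adjusted p = 0.0629).

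None of the 5 tested targets of *KMT2A* and menin passed in the knockdown comparison by limma, and 1 of them had an unadjusted p under 0.05, while *HOXA7*, *HOXA9* and *MEIS1* were below the filter. The hairpins differed for 2 of the 5. *PBX3*, a partner of HOX proteins, changed by −0.12 with shRNA1 (limma adjusted p = 0.0304) and by −0.51 with shRNA2 (adjusted p = 0.000199), and the difference between hairpins was −0.39 (adjusted p = 0.000584). *CDKN1B*, the cell cycle inhibitor p27, was lower with shRNA2 by −0.34 (limma adjusted p = 0.00334), and it differed between the hairpins by −0.32 (adjusted p = 0.0110).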

How the data were processed

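RNA-seq libraries of DU145 cells expressing scrambled or *FZD6* shRNAs (3 libraries per group, grouped by their titles) were analysed. Per the methods, the authors prepared stranded mRNA libraries, aligned reads with STAR and obtained FPKM with Cufflinks, and they deposited FPKM with confidence bounds per RefSeq entry. The submitters' processing notes name hg38, whereas the methods name mm10; the entries lie at human hg38 positions. FPKM are scaled for depth and length, so depth is not given directly. The estimated fragments per library were derived from the bounds of entries and are approximate.

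FPKM were summed over the RefSeq entries of each gene (72645 of 73240 accessions were matched to a symbol). Genes averaging 1 FPKM or more were tested on log2(FPKM + 1) with limma 3.58.1 in R 4.3.3, and p-values, which are for both directions, were adjusted by Benjamini-Hochberg over 12509 genes at a threshold of 0.05. The knockdown comparison used 2 groups, and the hairpins were compared in a model of 3 groups over 9 libraries. Lengths and GC contents came from GENCODE v29, and length trends were removed per library by lowess (span 0.3). The fitting script was tested on simulated data. The genes named in the text were the members and the listed genes that passed or define a list. The members and lists were chosen with earlier results of these data known. One list of prostate markers is not reported here. Alternatives were pseudocounts of 0.1 and 0.01, no filter or 5 FPKM, other scalings, removal of length or (chosen after seeing the data) GC trends, a replicate block, and leaving out each library. Promoters were RefSeq sequences on GRCh38.p14, and primers were those of the study's supplement.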

Additional observations from a re-analysis of the deposited data

Results flagged for a closer look

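*KMT2D* in the 6 knockdown libraries held 1 value far from the others. The gap between shRNA2 replicate 2 (5.87 FPKM) and the next library (4.75 FPKM) was 0.637 of the range of the 6, above Dixon's 95% critical value for 6 samples. Chance alone marks about 1 in 20 groups drawn from 1 normal population. These 6 libraries carry different hairpins, so that rate is only approximate here. The 11 genes examined were not independent of each other. In the same library the median of 620 other genes of 8000 bases or more was −0.0045 from the controls on the log2 scale, and the part of that difference in the *KMT2D* value was not tested.

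The target *FZD6* differed between the hairpins in the limma model of 9 libraries. The log2 difference between shRNA2 and shRNA1 was −0.251 (SE 0.0501, limma adjusted p = 0.0273), from 9.83 ± 0.376 FPKM (SD, n = 3) with shRNA1 to 8.11 ± 0.598 FPKM (SD, n = 3) with shRNA2. The difference passed in 14 of 22 alternatives and lost its call in the other 8, among them 6 of the 9 fits that left out 1 library.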

How the results depend on the processing

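Most values kept direction and side of the threshold. In the knockdown comparison *KMT2A* and *SETD1B* passed in every limma fit that tested them, *KDM5B* in all but the replicate block with length trends removed, *KMT2D* in all but those without control replicate 1 or 2, and *KMT2B*, *KMT2C* and *SETD1A* in 17 of 21, 10 of 20 and 12 of 21 alternatives. The count of members lower, 7, was 4 with length trends removed, 3 with the replicate block and length trends removed together, 3 by the criteria of the study on log2(FPKM + 1), 4 by the same criteria on log2 FPKM (added after seeing the data) and 3 to 8 when each library was left out. Of all 12509 tested genes, 888 were lower in the main fit and 363 to 1228 in leave-one-out fits. With length trends removed, 729 of 12255 were lower, and 555 with the block as well. With shRNA1 the count of 8 became 5 with a filter of 5 FPKM, which leaves fewer members to test, 5 with length trends removed, 4 with the block and length trends removed, and 2 to 8 in leave-one-out fits. Table-wide, 899 of 12509 genes were lower with shRNA1 in the main fit, and 365 to 1367 in leave-one-out fits. The filter gave 754 of 8608, and removal of length trends 763 of 12255, or 706 with the block. With shRNA2 the count of 5 became 3 with its 6 libraries only, 3 with length trends removed, with or without the block, and 3 to 7 in leave-one-out fits. Table-wide, 1422 of 12509 genes were lower with shRNA2, 973 with the 6 libraries only, and 974 to 1939 in leave-one-out fits. Removal of length trends gave 1519 of 12255, or 1515 with the block. Between the hairpins, 0 became 1 (*KMT2C*) with length trends removed, with or without the block. Of all 12255 genes in those fits, 436 were higher and 746 lower with shRNA2, or 379 and 681 with the block.

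Replicate numbers did not pair the libraries: same-numbered libraries correlated at −0.177 to 0.263 after group means were removed. With the replicate number as a block alone, 7 members were lower in the knockdown libraries, 7 with shRNA1 and 7 with shRNA2. Of all 12509 tested genes, 838, 994 and 1534 were lower in the same order.

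Signs turned for *KDM5A* with length trends removed (0.014 over the knockdown libraries and 0.072 with shRNA2, also with the block), and between the hairpins for *KDM6A* over NM accessions on primary chromosomes (0.022), *KDM5C* and *KMT2A* without shRNA2 replicate 3 (leave-one-out ranges −0.035 to 0.016 and −0.13 to 0.018). The difference of *FZD6* between hairpins was called in 14 of 22 alternatives. It lost its call with 6 libraries only (−0.25, adjusted p = 0.0928 by limma), over NM accessions (−0.17, adjusted p = 0.204), and without control replicate 2, any 1 shRNA1 library, or shRNA2 replicate 1 or 3 (limma adjusted p 0.0521 to 0.0986). In leave-one-out fits it ranged from −0.30 to −0.22. The causes were not tested. The GC trend, an alternative chosen after seeing the data, gave 8 members, with 1486 of all 12255 genes lower in place of 888 of 12509. FPKM hold no counts, so counting error is not covered by these values.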

Other observations

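*KDM5C* and *KDM6A* are listed under several accessions whose shares differed between libraries of 1 group. NM_001353978 of *KDM5C* held 59.3% to 59.9% of the gene in control and 37.1% to 56.2% with shRNA1, and NM_004187 held 0.0245% to 35.1% with shRNA1. NM_021140 of *KDM6A* held 43.5% to 59.8% in control and 28.9% to 73.1% with shRNA2, and the noncoding entry NR_111960 held 9.31% to 65.1% with shRNA2. Summed levels of both genes varied less, with 12.8 to 13.8 FPKM for *KDM5C* and 1.89 to 2.22 FPKM for *KDM6A* with shRNA2.

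Of the 45 tested genes of the listed complexes, enzymes, readers and targets, 5 differed between the hairpins, all of them lower with shRNA2. Of all 12509 tested genes 6.71% differed, and more of those were lower (599) than higher (240) with shRNA2. The 5 listed genes were *PBX3* and *CDKN1B*, given above, *SMYD3*, *WDR5* and *ING1*, a reader (−0.17, limma adjusted p = 0.0354). *SMYD3*, a methyltransferase, had a log2 difference, shRNA2 minus shRNA1, of −0.29 (limma adjusted p = 0.0130), and *WDR5*, a core subunit, one of −0.13 (adjusted p = 0.0281). *WDR5* stood at 34.3 ± 0.504 FPKM in control, 35.1 ± 0.286 with shRNA1 and 32.0 ± 0.792 with shRNA2 (SD, n = 3 each).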
